A study of Mus musculus with 13 samples.

Results

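The 10 FGF-ERK genes described here are the ligand Fgf4, the receptors Fgfr1 and Fgfr2, the ERK phosphatases Dusp4 and Dusp6, the Sprouty inhibitors Spry2 and Spry4, the ETS factors Etv4 and Etv5, and the immediate-early gene Egr1. They were found by symbol in a count table of 24079 genes, and all 10 were among the 13972 genes with enough counts to be tested. The cells were CGR8, a mouse embryonic stem (ES) cell line, grown without feeders on gelatin in medium with serum and LIF. They were kept for 48 h in 10 μM PhenDC3, a ligand that binds and stabilizes G-quadruplexes (G4, structures that G-rich DNA can fold into), or in its solvent, 0.5% DMSO (control). RNA-seq was done on 3 control and 3 PhenDC3 samples, and short nascent strands, the RNA-primed DNA made at replication origins (SNS-seq), were sequenced from 3 control and 2 PhenDC3 samples. No source says that the RNA-seq replicates came from separate cultures, so the p-values measure the spread between these samples, which may be technical.

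In the FGF-ERK pathway, an FGF binds a receptor tyrosine kinase on the cell surface, and RAS, RAF and MEK then pass the signal to the kinase ERK. Active ERK induces immediate-early genes and ETS factors, and also its own brakes, the DUSP phosphatases that take phosphate off ERK and the Sprouty proteins that act upstream of it, so the levels of these genes are often read as pathway output. In mouse ES cells Fgf4 is the main ligand that the cells make for themselves, and its signal through ERK prepares them to leave the naive state or to become primitive endoderm.

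The ligand and 1 receptor rose with PhenDC3, while every output and feedback gene of the 10 fell. Fgf4 and Fgfr1 rose by 1.64-fold and 1.67-fold. Dusp4, Dusp6, Spry2, Spry4, Etv4, Etv5 and Egr1 fell, from 1.45-fold for Etv5 to 14.2-fold for Spry4. Fgfr2 did not pass the test. Thus 2 of the 10 genes were called higher and 7 lower, at an adjusted p of at most 0.05 in edgeR's quasi-likelihood test. Over all genes tested, 18.0% were called higher and 18.7% lower. Of the 10 genes, 6 fell by 1 or more on the log2 scale and were called, against 5.84% of all genes. The median log2 fold change was -1.30 over the 10 genes and 0.01 over all genes tested. The 10 genes were chosen with earlier results of these data known, so they are no unbiased sample of all genes.

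The libraries held 22232014 to 29486502 counts in genes. The levels below are CPM (counts per 1000000 counts of the library) after scaling the libraries by the median of gene ratios (edgeR's RLE). Scaling by library size alone moved the median log2 fold change of all genes to 0.16 and changed the split of calls from 2518 higher and 2617 lower to 3583 higher and 1688 lower. Leaving out PhenDC3 replicate 1 gave 1709 higher and 1623 lower. These settings changed the direction of none of the 10 genes.

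**Figure D1:**
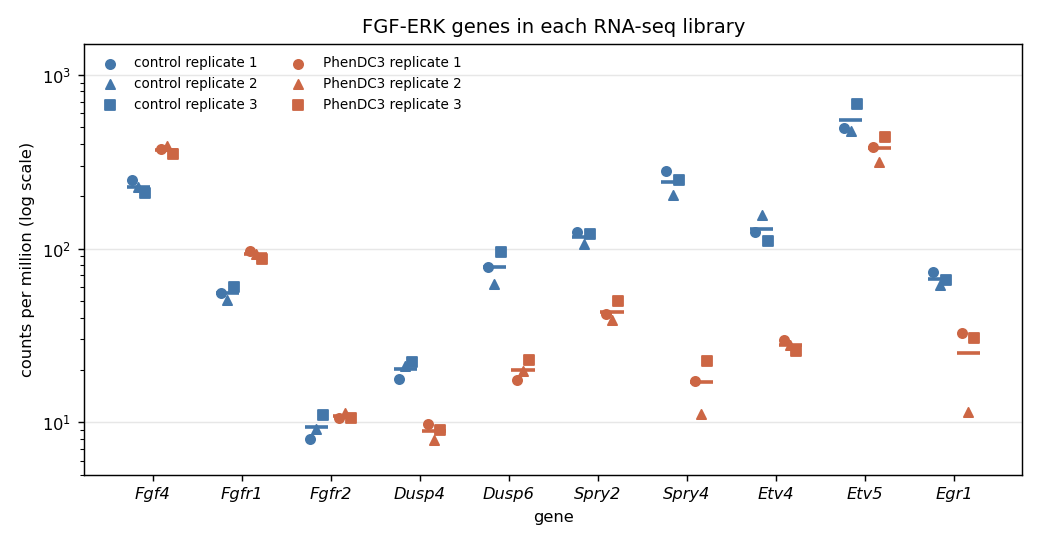
CPM (log axis) of each FGF-ERK gene in the 3 control (blue) and 3 PhenDC3 (orange) RNA-seq libraries. Symbols mark the replicate and short lines the group means. The groups overlap for Fgfr2 and for no other of the 10 genes.

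Sequences near the start sites are shown first, because PhenDC3 binds G4. A G4 pattern was taken as at least 4 runs of at least 3 G with loops of 1 to 7 bases, on either strand. Within 1 kb of the start site, 7 of the 10 genes held at least 1 such pattern, against 67.3% of 13949 expressed genes with a curated RefSeq start site. Spry2 and Etv4 held 4 each, Fgf4, Fgfr1 and Egr1 held 3, and Dusp4 and Dusp6 held 2, where the median over the expressed genes was 1. Fgfr2, Spry4 and Etv5 held none. Here and in the promoter window below, only the most upstream curated start site was searched, and Etv5 has 2. Spry4, the gene of the 10 that fell furthest, had no match in this window, and the Fgf4 and Fgfr1 genes, which rose, had 3 each. Whether such matches relate to the changes in RNA was not tested. A match is a description of letters and was not tested for folding. The matches upstream of the start sites of Fgfr1, Dusp4, Dusp6, Spry2 and Etv4, with runs of at least 3 G in capitals, read as follows on the G-rich strand (RefSeq, GRCm38.p6).
Fgfr1, chr8:25518547-25518563, minus strand: GGGtGGGGaGGGGcGGG
Dusp4, chr8:34806873-34806906, plus strand: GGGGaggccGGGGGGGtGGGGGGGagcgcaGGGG
Dusp4, chr8:34807212-34807230, plus strand: GGGGtGGGGGcGGGGcGGG
Dusp6, chr10:99262747-99262770, plus strand: GGGttGGGGGtGGGGGagcaGGGG
Spry2, chr14:105897802-105897818, minus strand: GGGGcGGGGtGGGGGGG
Spry2, chr14:105897592-105897614, minus strand: GGGtGGGGGctatGGGGGGGGGG
Spry2, chr14:105897192-105897250, plus strand: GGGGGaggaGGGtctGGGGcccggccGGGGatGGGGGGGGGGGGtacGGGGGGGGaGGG
Spry2, chr14:105897019-105897057, plus strand: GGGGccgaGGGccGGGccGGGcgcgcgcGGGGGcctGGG
Etv4, chr11:101785323-101785347, minus strand: GGGaaccggtGGGGaGGGGcGGGGG

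Counting the start site as position 0, the Etv4 match lies at -37 to -13 and the Fgfr1 match at -212 to -196. The 4 Spry2 matches lie between -999 and -200, on both strands. In the promoter window, 250 bases before to 50 bases from the start site, only Fgfr1, Spry2 and Etv4 of the 10 genes held a G4 pattern, against 28.5% of the expressed genes. Of these, Fgfr1 rose and the others fell. Their 250 bases before the start site, on the strand of the gene, are given with the G4 pattern in capitals (as its C-rich complement where it lies on the other strand).
Fgfr1, chr8:25518509-25518758, plus strand: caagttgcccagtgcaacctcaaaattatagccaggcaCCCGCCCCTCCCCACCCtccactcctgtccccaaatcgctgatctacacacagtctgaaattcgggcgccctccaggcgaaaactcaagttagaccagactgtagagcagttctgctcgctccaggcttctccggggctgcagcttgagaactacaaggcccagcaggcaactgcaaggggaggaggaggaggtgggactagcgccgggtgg
Spry2, chr14:105896820-105897069, minus strand: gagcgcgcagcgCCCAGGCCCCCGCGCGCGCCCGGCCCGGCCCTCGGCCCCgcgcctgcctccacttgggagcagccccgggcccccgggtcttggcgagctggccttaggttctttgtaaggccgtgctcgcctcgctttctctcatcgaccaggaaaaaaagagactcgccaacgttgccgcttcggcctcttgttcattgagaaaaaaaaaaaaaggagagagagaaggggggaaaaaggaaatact
Etv4, chr11:101785311-101785560, minus strand: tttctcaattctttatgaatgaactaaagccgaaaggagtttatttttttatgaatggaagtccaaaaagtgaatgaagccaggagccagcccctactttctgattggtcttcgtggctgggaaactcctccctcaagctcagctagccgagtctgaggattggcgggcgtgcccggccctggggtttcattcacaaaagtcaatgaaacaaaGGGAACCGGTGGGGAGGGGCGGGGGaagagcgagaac

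Motifs of factors that ERK acts on were searched in the same promoter window, on both strands. The CArG box, the element that serum response factor binds, was found at Egr1 and at none of the other 9 genes, where 1.23% of expressed genes held at least 1. The letters CCGGAA, the core that ETS factors bind, were found at Spry2 and Spry4, and 26.5% of expressed genes held them. The cyclic AMP element TGACGTCA was found at none of the 10, and 3.24% of expressed genes held it.

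Fgf4 encodes the FGF that ES cells secrete. Its level was 247, 225 and 208 CPM in control replicates 1 to 3 and 373, 390 and 349 CPM in PhenDC3 replicates 1 to 3. All 3 PhenDC3 samples lay above all 3 controls. The mean rose from 226 ± 19.7 to 370 ± 20.7 CPM (SD, n = 3 each), a log2 fold change of 0.71 (SE 0.11, adjusted p = 0.0017). Bulk RNA cannot tell a change in the share of cells making a transcript from a change in its amount per cell. This holds here and for each gene below.

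Fgfr1 is the main FGF receptor of naive ES cells, and Fgfr2 is the receptor best known from primitive endoderm. Fgfr1 was at 55.6, 50.7 and 59.7 CPM in control replicates 1 to 3 and at 97.3, 93.3 and 86.7 CPM in PhenDC3 replicates 1 to 3. Its log2 fold change was 0.74 (SE 0.11, adjusted p = 0.00121), and no PhenDC3 sample fell within the control range. Fgfr2 was at 8.07, 9.21 and 10.98 CPM in the controls and at 10.6, 11.3 and 10.6 CPM with PhenDC3. The Fgfr2 groups overlapped, because control replicate 3 was as high as the PhenDC3 samples. Its log2 fold change of 0.21 had a 95% interval from -0.15 to 0.56 (adjusted p = 0.333), so a rise of the size of that of Fgfr1 lay outside the interval.

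Dusp4 and Dusp6 encode phosphatases that remove phosphate from MAP kinases, Dusp6 in the cytoplasm with a strong preference for ERK and Dusp4 in the nucleus. Dusp6 was at 78.3, 62.2 and 95.5 CPM in control replicates 1 to 3 and at 17.5, 19.9 and 22.9 CPM in PhenDC3 replicates 1 to 3. It fell 3.91-fold, a log2 fold change of -1.97 (SE 0.18, adjusted p = 0.000124). The lowest control was well above the highest PhenDC3 sample, although control replicates 2 and 3 stood 0.62 apart on the log2 scale. Dusp4 was at 17.8, 21.1 and 22.1 CPM in the controls and at 9.78, 7.90 and 9.004 CPM with PhenDC3. It fell 2.28-fold (log2 fold change -1.19, SE 0.15, adjusted p = 0.00053), again with no overlap.

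Spry2 and Spry4 encode Sprouty proteins, which are induced by ERK and restrain signalling from receptor tyrosine kinases. Spry4 was at 278, 202 and 246 CPM in control replicates 1 to 3 and at 17.3, 11.1 and 22.7 CPM in PhenDC3 replicates 1 to 3. Every control was therefore far above every PhenDC3 sample. The mean went from 242 ± 38.4 to 17.0 ± 5.79 CPM, a 14.2-fold fall (log2 fold change -3.83, SE 0.26, adjusted p = 5.34e-05). Ranked by log2 fold change from the lowest, Spry4 was number 13 of the 13972 genes tested. Spry2 was at 124, 106 and 122 CPM in the controls and at 41.9, 38.7 and 49.6 CPM with PhenDC3. It fell 2.70-fold (log2 fold change -1.43, SE 0.13, adjusted p = 0.000132), and the groups did not overlap.

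Etv4 and Etv5 are ETS transcription factors of the PEA3 family, whose expression follows FGF signalling in many tissues. Etv4 was at 124, 156 and 110 CPM in control replicates 1 to 3 and at 29.9, 27.9 and 25.8 CPM in PhenDC3 replicates 1 to 3. It fell 4.66-fold (log2 fold change -2.22, SE 0.15, adjusted p = 5.34e-05), with PhenDC3 samples close together and far below the controls. It was number 147 from the lowest log2 fold change.

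Etv5 was at 495, 474 and 676 CPM in control replicates 1 to 3 and at 385, 313 and 440 CPM in PhenDC3 replicates 1 to 3. The groups did not overlap, but the highest PhenDC3 sample, replicate 3, came near the lowest control, replicate 2. Etv5 fell 1.45-fold (log2 fold change -0.53, SE 0.17, adjusted p = 0.0392), and this call was the only one of the 9 that other settings removed. The adjusted p was 0.0617 without control replicate 1, 0.09 without control replicate 3, 0.105 without PhenDC3 replicate 1, 0.115 without PhenDC3 replicate 2 and 0.092 with scaling by library size alone. The log2 fold change in these fits lay between -0.61 and -0.36. With the replicate number as a block, its adjusted p was 0.000122.

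Egr1 is an immediate-early zinc finger factor, transcribed within minutes of ERK activation. Egr1 stood at 72.9, 62.0 and 65.8 CPM in the controls, in the order of their numbers, and at 32.7, 11.5 and 30.7 CPM with PhenDC3. All PhenDC3 samples lay below the controls, and PhenDC3 replicate 2 stood apart below the other two. Egr1 fell 2.68-fold (log2 fold change -1.42, SE 0.32, adjusted p = 0.00853). Without PhenDC3 replicate 2 its log2 fold change was -1.07 and the call stood.

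Between the groups, 2 genes did not overlap in the higher direction (Fgf4 and Fgfr1) and 7 in the lower direction. Over all genes tested, 25.0% did not overlap with PhenDC3 higher and 25.6% with PhenDC3 lower. Of the 7 genes that fell, 5 were lowest among the PhenDC3 samples in replicate 2, and 5 were lowest among the controls in replicate 2. Spry2, Spry4, Etv5 and Egr1 are in each of these sets, with Dusp4 only in the PhenDC3 set and Dusp6 only in the control set.

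**Figure D2:**
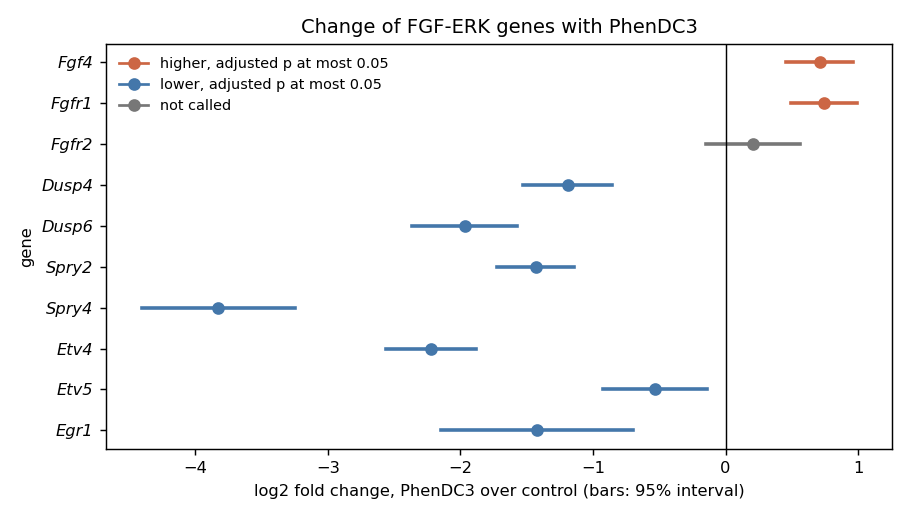
Log2 fold change of PhenDC3 over control for the 10 FGF-ERK genes, with 95% intervals from edgeR's quasi-likelihood fit. Intervals of Fgf4 and Fgfr1 lie above 0, those of Dusp4, Dusp6, Spry2, Spry4, Etv4, Etv5 and Egr1 lie below 0, and that of Fgfr2 spans 0.

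The sizes of the changes were also set against each other within families. The log2 ratio of Spry4 to Spry2 was 1.16, 0.93 and 1.02 in the controls and -1.27, -1.80 and -1.13 with PhenDC3. The ratio thus changed sign, from more Spry4 counts than Spry2 counts in every control to fewer in every PhenDC3 sample. Counts depend on length, and Spry4 has 4687 bases of curated exon against 2087 for Spry2. In CPM per kilobase of exon, Spry4 was already below Spry2 in every control (59.4, 43.1 and 52.6 against 59.5, 50.7 and 58.3). The log2 ratio of Etv4 to Etv5 went from a mean of -2.07 ± 0.51 to -3.76 ± 0.31, and that of Dusp6 to Dusp4 from 1.94 ± 0.32 to 1.17 ± 0.29. The log2 ratio of Fgfr1 to Fgfr2 rose from 2.56 ± 0.19 to 3.09 ± 0.09 (SD, n = 3 each). The groups did not overlap in any of these 4 ratios. The exact permutation test gave p = 0.1 for each (two-sided, 3 against 3, adjusted p = 0.1 over 4 ratios), which is the smallest p this design allows.

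Per length of transcript, the order of the genes changed too. In FPKM, which are CPM per kilobase of curated exon, the control level was highest for Etv5 (111 ± 22.6), followed by Fgf4 (74.7 ± 6.49). Spry2 (56.2 ± 4.78), Etv4 (55.7 ± 10.1) and Spry4 (51.7 ± 8.19) came next, and as neighbours in this order their control ranges overlapped. Lower down, the ranges of Dusp6 (28.1 ± 5.95) and Egr1 (21.8 ± 1.80) overlapped, and Fgfr1 (11.01 ± 0.90), Dusp4 (8.38 ± 0.93) and Fgfr2 (1.76 ± 0.27) each stood below the gene before it.

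With PhenDC3, Fgf4 was the highest at 122 ± 6.83 FPKM and Etv5 came after it at 77.1 ± 12.9 FPKM. Fgfr1, at 18.4 ± 1.07 FPKM, had moved from the eighth place to the fourth, next to Spry2 at 20.8 ± 2.69 FPKM, whose range it overlapped. Spry4 had moved from the fifth place to the ninth, at 3.64 ± 1.24 FPKM, where it overlapped Dusp4 at 3.67 ± 0.39 FPKM. Etv4 was at 11.9 ± 0.88, Egr1 at 8.13 ± 3.82 and Dusp6 at 7.19 ± 0.97 FPKM, the last pair with overlapping ranges. Fgfr2 was the lowest in each condition (2.03 ± 0.08 FPKM with PhenDC3).

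**Figure D3:**
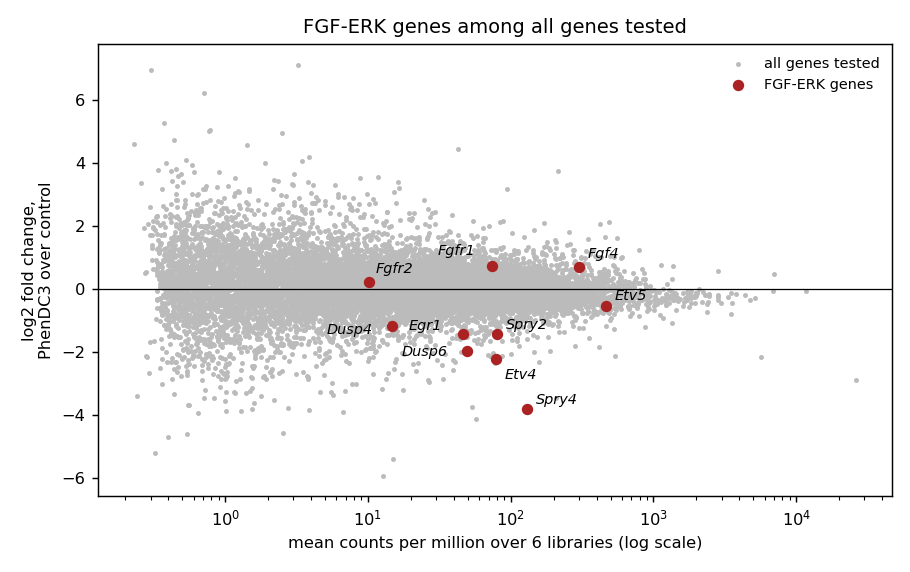
Log2 fold change against mean CPM (log axis) for the 13972 genes tested (grey), with the 10 FGF-ERK genes in red. Spry4 lies at the lower edge of the genes of its level, and Fgf4, Fgfr1 and Fgfr2 lie above 0.

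The other genes of the pathway were taken from lists by role. Of 133 such genes, 117 could be tested, and 24 were higher and 24 lower, or 20.5% each way, near the 18.0% and 18.7% of all genes tested. With the replicate number as a block these counts were 41 and 36, or 35% and 30.8%, above the 27.2% and 26.4% of all genes. With scaling by library size alone they were 33 and 20, beside 3583 and 1688 over all genes. The median log2 fold change of the 117 genes was 0.11, against -1.30 for the 10 genes, which were chosen with earlier results known.

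Among the other FGF ligands, 1 of the 11 tested was higher (5 with the block) and 4 were lower. The higher call, Fgf23 at 0.13 ± 0.12 CPM in the controls and 0.91 ± 0.19 CPM with PhenDC3, was lost with a minimum mean of 1 CPM. The higher calls numbered 2 without control replicate 2, without PhenDC3 replicate 3, with no filter, with DESeq2 and with scaling by library size alone. Fgf15, an FGF of the endocrine group, fell from 9.94 ± 0.81 to 1.25 ± 0.23 CPM (log2 fold change -2.997, adjusted p = 5.34e-05). Fgf17, of the FGF8 group and the ligand of this list with the highest level, fell from 15.1 ± 0.16 to 4.63 ± 0.34 CPM (log2 fold change -1.70, adjusted p = 9.49e-05). Fgf13, an FGF homologous factor that stays in the cell, fell from 2.33 ± 0.09 to 1.22 ± 0.20 CPM (log2 fold change -0.92, adjusted p = 0.0161), a call lost without PhenDC3 replicate 1 or 2. Of the 21 ligands listed beside Fgf4, 14 had a mean under 1 CPM.

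Of the other receptors and co-receptors, 21 were tested, with 5 higher (8 with the block) and 5 lower. The list includes the heparan sulfate proteoglycans and their sulfotransferases, which help FGFs bind their receptors. The syndecan Sdc4, with the highest level of the list, rose from 97.0 ± 12.9 to 245 ± 19.1 CPM (log2 fold change 1.33, adjusted p = 0.000176). The heparan sulfate sulfotransferases Hs6st1 and Hs6st2 moved in opposite directions. Hs6st1 rose from 75.1 ± 6.35 to 189 ± 24.1 CPM (log2 fold change 1.33, adjusted p = 0.000173), and the less abundant Hs6st2 fell from 2.58 ± 0.72 to 0.66 ± 0.29 CPM (log2 fold change -1.94, adjusted p = 0.00354). The glypican Gpc6 rose from 1.64 ± 0.72 to 4.80 ± 0.69 CPM (log2 fold change 1.55, adjusted p = 0.0058).

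Of the kinases and adaptors of the cascade itself, 25 were tested, 5 were higher and 2 lower (8 lower with the block), and the median log2 fold change was 0.07. There were 3 higher without PhenDC3 replicate 1, 8 higher with scaling by library size alone and 4 lower without control replicate 3. The RAS exchange factor Sos2 rose from 4.87 ± 0.48 to 13.8 ± 0.83 CPM (log2 fold change 1.504, adjusted p = 0.000192). The scaffold Ksr1 rose from 7.06 ± 1.16 to 14.3 ± 3.23 CPM (log2 fold change 1.01, adjusted p = 0.00486). Lamtor3, a scaffold for MEK1 on late endosomes, fell from 58.1 ± 4.05 to 32.8 ± 1.36 CPM (log2 fold change -0.83, adjusted p = 0.000639). The FGF receptor substrate Frs3 rose from 5.47 ± 1.55 to 9.45 ± 2.11 CPM (log2 fold change 0.79, adjusted p = 0.033), a call lost without control replicate 1 or 3 or without PhenDC3 replicate 1 or 2.

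The other inhibitors of the pathway went both ways. Of 23 tested, 3 were higher and 4 lower (5 and 8 with the block). Spry1, another Sprouty gene, fell from 16.9 ± 1.69 to 4.85 ± 0.68 CPM (log2 fold change -1.79, adjusted p = 0.000138). The Sprouty-related Spred1 fell from 88.0 ± 5.28 to 29.3 ± 4.11 CPM (log2 fold change -1.59, adjusted p = 8.86e-05). In contrast, Dusp8 and Dusp16, phosphatases known mainly for JNK and p38, rose. Dusp16 went from 31.3 ± 7.21 to 96.6 ± 4.05 CPM (log2 fold change 1.63, adjusted p = 0.00018) and Dusp8 from 0.51 ± 0.34 to 2.69 ± 0.12 CPM (log2 fold change 2.38, adjusted p = 0.00199). Pebp1, a RAF inhibitor and the most abundant of the list, fell from 297 ± 67.1 to 166 ± 19.995 CPM (log2 fold change -0.84, adjusted p = 0.00588).

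Of the other ERK-responsive transcription factors and immediate-early genes, 22 were tested, with 4 higher (8 with the block) and 7 lower. The lower calls numbered 4 without PhenDC3 replicate 1 and 4 with scaling by library size alone. Myc, a growth factor target and ES cell regulator, fell from 50.2 ± 4.78 to 10.3 ± 3.40 CPM (log2 fold change -2.27, adjusted p = 0.000189). Ccnd1, cyclin D1, fell from 121 ± 18.7 to 43.8 ± 12.7 CPM (log2 fold change -1.46, adjusted p = 0.00107). Jun, an AP-1 subunit, and Atf3, a stress-induced factor, rose instead. Jun went from 3.31 ± 0.45 to 10.0 ± 0.47 CPM (log2 fold change 1.60, adjusted p = 0.000249) and Atf3 from 2.36 ± 0.97 to 9.46 ± 1.66 CPM (log2 fold change 2.01, adjusted p = 0.000906). The receptor gene Epha2, with the highest level of this list, fell from 184 ± 4.78 to 134 ± 19.0 CPM (log2 fold change -0.46, adjusted p = 0.0201), a call lost with scaling by library size alone and without control replicate 1, PhenDC3 replicate 1 or PhenDC3 replicate 2.

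Among the other receptor tyrosine kinases, which can also feed into ERK, 6 of the 15 tested were higher and 2 lower (1 without PhenDC3 replicate 1), with a median log2 fold change of 0.53. Kit, the stem cell factor receptor and the most abundant of them, rose from 102 ± 16.4 to 231 ± 17.0 CPM (log2 fold change 1.18, adjusted p = 0.000404). The VEGF receptor Flt1 rose from 2.27 ± 1.37 to 8.28 ± 3.33 CPM (log2 fold change 1.86, adjusted p = 0.00954). The neurotrophin receptor Ntrk2 rose from 0.55 ± 0.21 to 1.74 ± 0.10 CPM (log2 fold change 1.63, adjusted p = 0.00526). The GDNF receptor Ret fell from 2.02 ± 0.28 to 0.90 ± 0.20 CPM (log2 fold change -1.16, adjusted p = 0.0116).

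**Figure D4:**
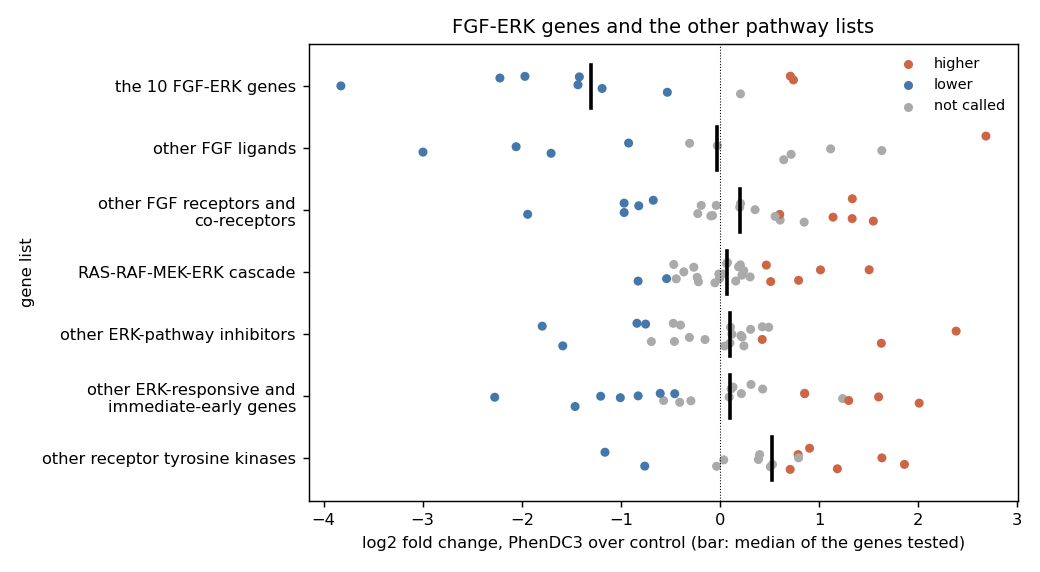
Log2 fold change of each gene tested in the 10 FGF-ERK genes and in 6 other pathway lists, coloured by its call, with a bar at each list's median. The median of the 10 genes is -1.30, and the medians of the other lists lie between -0.03 and 0.53.

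The label of the cells as ES cells was checked against markers, and several marker lists moved with PhenDC3. Of 13 ES cell markers, all tested, 6 were higher and 3 lower, and their summed level was 8124 to 8824 CPM in the controls and 10039 to 11174 CPM with PhenDC3. Pou5f1 fell from 1486 ± 118 to 1091 ± 43.4 CPM (log2 fold change -0.45, adjusted p = 0.0113), a call lost with scaling by library size alone and without PhenDC3 replicate 1, and Nanog rose from 477 ± 12.7 to 1112 ± 69.1 CPM (log2 fold change 1.22, adjusted p = 0.000101). Of 7 primed and formative markers, which include Fgf5 of the ligand list, 5 were lower and none higher, and their sum was 504 to 783 CPM in the controls and 205 to 263 CPM with PhenDC3.

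Of 10 primitive endoderm markers, 7 were higher and none lower (838 to 1022 CPM summed in the controls, 1785 to 2288 CPM with PhenDC3), and Gata6 rose from 7.20 ± 2.82 to 12.98 ± 2.003 CPM (log2 fold change 0.85, adjusted p = 0.0435), a call lost without any 1 of the PhenDC3 replicates. Of 7 trophectoderm markers, 5 were higher and none lower (78.3 to 109 CPM against 178 to 236 CPM). Neural markers had 1 higher and 1 lower of 4 tested (sums of 87.1 to 94.3 and 93.0 to 116 CPM), and mesoderm markers had none called of 4 tested (7.96 to 8.89 and 6.49 to 9.58 CPM). Fibroblast markers summed to 5.88 to 6.84 CPM in the controls and 3.22 to 5.92 CPM with PhenDC3, with 1 lower of 3 tested and with Dcn and Lum at 0 counts in every library. With the replicate block, 1 mesoderm marker was called higher and 1 lower, 2 neural markers were higher, and 1 fibroblast marker was higher. There were also 2 neural markers higher without control replicate 2 and with scaling by library size alone, and 1 fibroblast marker higher without control replicate 3. The part of these cell states in the changes of the 10 genes was not tested.

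SNS-seq peaks were examined at the same start sites to describe where origins had been called near the 10 genes. A peak within 2 kb of a curated start site was present in at least 2 of the 3 controls for 9 of the 10 genes, all but Dusp6, against 62.2% of expressed genes. It was present in both PhenDC3 samples for 7 of the 10, all but Fgf4, Fgfr1 and Dusp6, against 41.5% of expressed genes. By sample, 10, 9 and 5 of the genes had a peak in control replicates 1 to 3, and 9 and 8 in PhenDC3 replicates 1 and 2. The count in the controls was 5 when control replicate 1 or 2 was left out, and 9 without control replicate 3. The lists held 79377 to 144103 peaks and each condition was called against its own RNase-treated library, so presence in a list moves with how much was called. With 3 samples against 2, a two-sided exact permutation test cannot give p under 0.2, and no test of the difference was made.

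**Figure D5:**
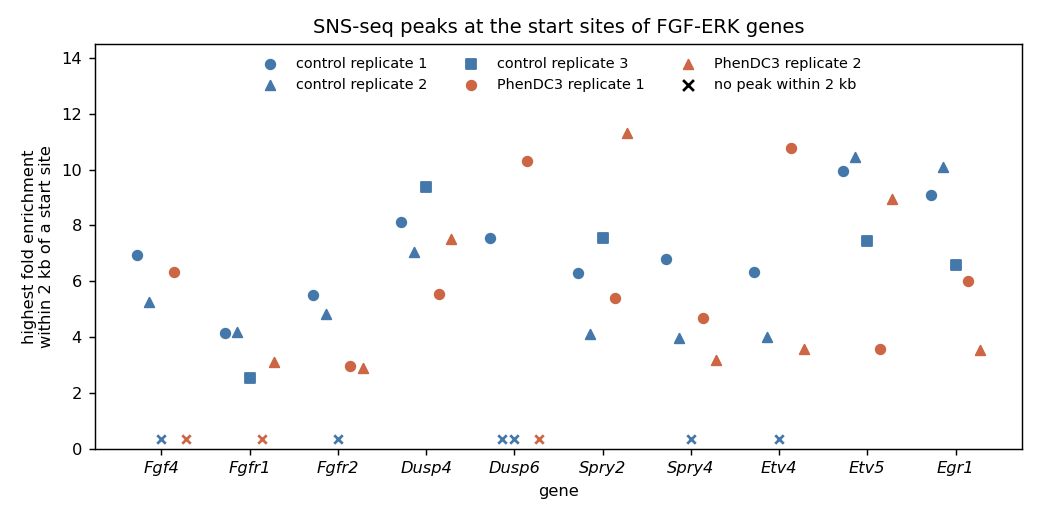
Highest fold enrichment of an SNS-seq peak within 2 kb of a start site of each gene, by sample (blue, control; orange, PhenDC3), with crosses near the axis where no peak was called. Dusp4, Spry2, Etv5 and Egr1 have a peak in all 5 samples. Where peaks were called, PhenDC3 values lie below the control values at Fgfr2 and Egr1. At Dusp6, with a peak only in replicate 1 of each condition, the PhenDC3 value lies above, but its peak is at another place. The highest peak of a gene is not always the same peak across samples.

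The highest fold enrichment over background at Etv5 was 9.96, 10.5 and 7.43 in control replicates 1 to 3 and 3.57 and 8.93 in PhenDC3 replicates 1 and 2. At Egr1 it was 9.11, 10.1 and 6.57 in the controls and 6.01 and 3.54 with PhenDC3. Each condition had its own background, from 1 RNase-treated library, so values of control and PhenDC3 samples also differ in that library. The Egr1 values were lower in each PhenDC3 sample than in each control, and the Etv5 values overlapped. As a percentile of its own list, however, the Egr1 value of PhenDC3 replicate 1 (66.49) was above that of control replicate 3 (65.65). These highest peaks were not the same peak in every sample. The Egr1 summits lay 2356, -92 and 1405 bases from the start site in the controls, and -50 and -60 with PhenDC3. At Spry2, which fell, the values were 6.31, 4.11 and 7.54 in the controls and 5.39 and 11.3 with PhenDC3. The highest, in PhenDC3 replicate 2, had its summit at 1397, while those of the other samples lay between -564 and -546. At Fgfr1, which rose, they were 4.13, 4.18 and 2.54 in the controls and 3.10 in PhenDC3 replicate 2, and no peak was called in PhenDC3 replicate 1.

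At Fgf4 the highest value was 6.94 and 5.25 in control replicates 1 and 2 and 6.35 in PhenDC3 replicate 1, with no peak in the other samples. Spry4 reached 6.81 in control replicate 1 and 3.98 in control replicate 2, against 4.67 and 3.20 with PhenDC3. Etv4 reached 6.32 and 3.995 in the same controls and 10.8 and 3.59 with PhenDC3. Dusp6 had a peak only in replicate 1 of each condition, at 7.54 in the control and 10.3 with PhenDC3. Their summits were at different places, -1954 and -284 from the start site. Dusp4 was at 8.11, 7.06 and 9.38 in the controls and at 5.55 and 7.51 with PhenDC3, and Fgfr2 was at 5.49 and 4.83 in control replicates 1 and 2 and at 2.97 and 2.88 with PhenDC3. As above, the highest peak of a gene was not always the same peak across samples. The Spry4 summits lay at 212 and -744 in control replicates 1 and 2, and at -818 and -684 with PhenDC3. The relation of peaks to the changes in RNA was not tested.

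At some genes the summits of the peaks fell on the same place in different samples. For 4 of the 10 genes, Dusp4, Spry2, Etv5 and Egr1, all 5 samples had a summit within 50 bases of a common position, against 11.5% of expressed genes. For 7 of the 10 at least 4 of the 5 samples did, against 26.5% of expressed genes, and the additional genes were Fgfr1, Fgfr2 and Etv4. From the start site, these summits lay at -212 to -158 for Dusp4, -564 to -539 for Spry2, 395 to 443 for Etv5, -92 to -50 for Egr1, 416 to 443 for Etv4, 1045 to 1069 for Fgfr1 and 1150 to 1164 for Fgfr2. The Dusp4 and Spry2 summits lie upstream of the gene, and the Etv5 summits in its first intron of the longer transcript. The shortest peak called at each of these 3 places is shown on the strand of the gene, with runs of at least 3 G or 3 C in capitals (RefSeq, GRCm38.p6).
Dusp4, chr8:34807395-34807483, plus strand: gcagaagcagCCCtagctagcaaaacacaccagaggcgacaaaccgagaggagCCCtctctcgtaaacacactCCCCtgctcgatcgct
Spry2, chr14:105897313-105897411, minus strand: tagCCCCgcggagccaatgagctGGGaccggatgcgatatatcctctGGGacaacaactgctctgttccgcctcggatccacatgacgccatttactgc
Etv5, chr16:22439095-22439202, minus strand: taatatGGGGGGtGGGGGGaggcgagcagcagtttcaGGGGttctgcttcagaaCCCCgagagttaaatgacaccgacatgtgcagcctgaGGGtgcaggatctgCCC

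At the shared position the fold enrichment of Dusp4 was 7.59, 7.06 and 9.38 in the controls and 3.47 and 7.51 with PhenDC3. For Spry2 it was 6.31, 4.11 and 7.54 in the controls and 5.39 and 5.51 with PhenDC3. For Etv5 it was 8.73, 10.5 and 6.69 in the controls and 3.57 and 8.93 with PhenDC3. The conditions overlapped at these 3 genes. At Egr1 it was 8.79, 10.1 and 6.18 in the controls and 6.01 and 3.54 with PhenDC3, and at Fgfr2 the value was 5.49 in control replicate 1, 4.67 in control replicate 2, and 2.94 and 2.88 with PhenDC3. At Egr1 and Fgfr2 each PhenDC3 value was below each control value, but control replicate 3 had no peak at Fgfr2. The share of all genes with such a separation was not counted, and each condition had its own background library.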

How the data were processed

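RNA-seq and SNS-seq libraries of CGR8 cells were grouped by the treatment in the labels. Raw counts per gene, from which all expression values here derive, were deposited by the authors, who aligned reads with TopHat2 2.1.1 and Bowtie2 2.2.9 and counted them with HTSeq 0.6.1p1, per the submitters' processing notes. The annotation and strand setting are not given in the sources used here, so reads of genes that overlap on opposite strands may not be told apart. The authors' table of normalized pseudo-counts, fold changes and p-values was not used. For SNS-seq the authors deposited a MACS2 2.1.0 peak list per sample on mm10 (GRCm38), with the ratio of signal over background as fold enrichment and the −log10 p of each peak, called with 1 RNase-treated sample per condition as the control. The peak names in the list of control replicate 3 begin with rep2 and name the DMSO treatment, so its number, though not its group, is uncertain. The RNase-treated samples are not analysed here.

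Counts were tested with edgeR 4.0.16 in R 4.3.3 (quasi-likelihood F-test, robust, RLE factors, default low-count filter, 3 against 3 with no covariate), with Benjamini-Hochberg adjustment over 13972 genes and a threshold of 0.05. The procedure was tested on simulated data. Total counts were 22232014 to 29486502 per library, and 17 symbols in the table repeat. Curated RefSeq transcripts of GRCm38.p6 gave start sites for 23937 genes, exon lengths and sequence. The likeness of genes was measured on log2 CPM with a prior count of 2.

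Deviations from the group means correlated between libraries of the same replicate number at r = 0.105, 0.638 and 0.502 (replicates 1 to 3, 12480 genes). For replicate 1 this was little above the 0.0783 of PhenDC3 replicate 1 with control replicate 3. The numbers, which come from the labels, were taken as pairs for an alternative fit with the replicate as a block. Other alternatives were TMM and library-size scaling, no filter, a mean of at least 1 CPM, DESeq2 1.42.0, limma-voom with limma 3.58.1, leaving out each library, and, for peaks, 1 kb, 5 kb and a stricter list. The 10 genes and all lists were chosen with earlier results of these data known. All 10 genes are named. From each other pathway list the text names up to 4 called genes with the largest change and a mean of at least 1 CPM, plus the gene with the highest level. A gene that this rule names and a sequence match are not reported here. Of the markers, Pou5f1, Nanog and Gata6 are named. Dcn, Lum, Fgf5 and Fgf23, and the genes singled out by peak summits, were chosen after their values were seen.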

Additional observations from a re-analysis of the deposited data

How the results depend on the processing

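Of the 9 calls among the FGF-ERK genes, 8 kept their direction and call in all 13 alternatives. Etv5 kept its direction in all and its call in 8, with log2 fold changes of -0.65 to -0.36, and Fgfr2 was called in none (0.10 to 0.36). Spry4 ranged from -4.09 to -3.60 and Egr1 from -1.66 to -1.07, the ends of each without PhenDC3 replicates 3 and 2, and 1 and 2. With the replicate block, 3797 genes were called higher in place of 2518, and 41 other pathway genes in place of 24; it changed no call among the 10 genes, and the pathway and marker list counts that it moved by over 1.5 times stand in the report. Scaling by library size alone left 1688 genes called lower in place of 2617. Leaving out 1 library each gave 1623 to 2727 genes called lower, the fewest without PhenDC3 replicate 1. Of the 10 genes, those with a peak in at least 2 controls numbered 5 to 9 as 1 control was left out, and those with a peak in both PhenDC3 samples numbered 2 with peaks above each list's median −log10 p only. The stricter lists hold fewer peaks by their making, and leaving out a control leaves fewer controls to count. The cause of these shifts was not tested. The lowest count of the 10 genes in a library was 189, for Dusp4 in PhenDC3 replicate 2, while the ligands with a mean under 1 CPM had few counts to test.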

Other observations

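Genes other than the 10 FGF-ERK genes were ranked by how closely their centred log2 CPM followed Dusp6 or Fgf4 over the 6 RNA-seq libraries. The 3 nearest to Dusp6 among tested genes with a mean of at least 1 CPM were Acsl5, a fatty acid CoA ligase (root mean square difference 0.135 on the log2 scale), Fzd7, a Wnt receptor (0.156), and Hpdl, a dioxygenase-like gene (0.158). Acsl5 was at 15.0, 14.9 and 19.2 CPM in control replicates 1 to 3 and at 3.36, 4.56 and 5.37 CPM in PhenDC3 replicates 1 to 3. Fzd7 was at 165, 138 and 187 CPM in the controls and at 33.1, 32.7 and 51.7 CPM with PhenDC3, and Hpdl was at 13.1, 14.1 and 18.5 CPM against 3.95, 3.93 and 4.21 CPM. In each of them control replicate 3 was the highest library, as it was for Dusp6. They were picked by likeness over these same libraries, so this is no separate observation.

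The 3 nearest to Fgf4 were Pros1, protein S of the clotting system (0.0386), Psap, the precursor of the saposins (0.0395), and Zscan29, a zinc finger gene (0.0404). Psap, at a level near that of Fgf4, was at 238, 210 and 208 CPM in the controls and at 350, 372 and 347 CPM with PhenDC3. Pros1 was at 27.3, 26.1 and 22.9 CPM against 41.2, 44.1 and 41.1 CPM, and Zscan29 at 12.5, 12.2 and 11.2 CPM against 19.2, 20.6 and 17.9 CPM. These likenesses rest on 6 libraries in 2 conditions, and many genes that rise by a like amount would be near Fgf4 on this measure.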
